A study of Mus musculus with 20 samples.

Results

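The 36 genes described here carry out the oxidation of fatty acids in the liver or are known targets of the nuclear receptor PPAR-alpha (gene Ppara). They were listed by name and role, with earlier results of these data known, and all 36 of 36 were found among the 46603 identifiers of the count files. Every one of the 36 also passed the filter on low counts, so none is missing from the tests over 14661 genes.

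PPAR-alpha is switched on by fatty acids and pairs with the retinoid X receptor RXR to bind DNA at repeats of a short sequence. Its targets bring fatty acids into the hepatocyte, tie them to coenzyme A, pass them through the carnitine shuttle into mitochondria, and shorten them there by beta-oxidation. Peroxisomes shorten very long chains by a parallel route, and CYP4A enzymes of the endoplasmic reticulum oxidise the far (omega) end of the chain. In liver the pathway is best known for supplying energy and ketone bodies in fasting.

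Liver RNA came from male mice aged 2 months on standard chow, 5 wild type (WT, C57BL/6J) and 5 EedHepKO (KO). EedHepKO mice carry the transgene Alb:Cre and the allele Eedflox, with loxP sites around exons 3 and 6 of Eed, a subunit of polycomb repressive complex 2 (PRC2). The albumin promoter drives Cre in hepatocytes, and whether other liver cells keep Eed was not measured in these libraries. Each mouse had a partial hepatectomy (PHx). Lobes 1, 2 and 3 taken at surgery were the baseline (0 h), and lobes 4, 5 and 6 were collected 30 h (1 mouse per genotype), 40 h (2 per genotype) or 48 h (2 per genotype) later. This made 4 groups of 5 libraries. The WT mice were bought from a vendor and the KO mice were bred from crossed strains, so genotype and colony cannot be told apart, nor can the response to PHx and the lobe. Libraries are named by group and mouse number, as in KO baseline 12.

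Total counts were 21634890 to 30461351 per library, and Eed was at 14.6 to 23.2 counts per 1000000 (CPM) in WT against 2.75 to 7.52 CPM in KO. Defining hepatocyte markers were present in every group. Their summed level was lower in KO at baseline (104000 to 136000 CPM against 162000 to 183000 CPM in WT), and the summed macrophage markers (561 to 761 against 207 to 354 CPM) and stellate cell markers (503 to 721 against 192 to 324 CPM) were higher. Cycling markers summed to 61.1 to 182 CPM in KO against 29.2 to 36.4 CPM in WT. Neutrophil markers (3.71 to 11.4 against 1.19 to 2.15 CPM) and endothelial markers (367 to 445 against 303 to 345 CPM) were higher too. Red cell markers were lower (155 to 266 against 316 to 495 CPM), and cholangiocyte markers overlapped (128 to 442 against 90.7 to 140 CPM). In whole tissue, fewer hepatocytes and less RNA per hepatocyte cannot be told apart. Values are CPM of the TMM-scaled total, and a gene is called changed at an adjusted p under 0.05 (edgeR quasi-likelihood test, adjusted over all genes tested).

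Promoters are shown first because they are the regulatory sequence at hand for the members, although elements that PPAR-alpha binds are also known in introns and distal enhancers, which were not searched. RefSeq promoters (GRCm38.p6, 250 bases before to 50 after the start site) were given for 28 of the 36 members. They were searched on both strands for AGGTCANAGGTCA, the short sequence repeated with 1 base between, which is the type of element that PPAR-alpha and RXR are known to bind. No member's promoter held the exact sequence, against 0.0481% of the 27025 genes with a promoter. With 1 mismatch in the 12 fixed letters, Fabp1 alone of the 28 had a match (3.57% against 0.644%). With up to 2 mismatches, 5 of 28 had one (17.9% against 4.4%). The 5 matches follow, each on the strand of its gene.

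Fabp1, 1 mismatch, chr6:71199812-71199824: TGACCTATGGCCT
Etfa, 2 mismatches, chr9:55512308-55512320: TTACCTTTGCCCT
Cd36, 2 mismatches, chr5:17835947-17835959: TGGCCTCTGACTT
Creb3l3, 2 mismatches, chr10:81092788-81092800: AGGGGAGAGGTCA
Slc25a20, 2 mismatches, chr9:108662142-108662154: AGGTGAAAGGTCG

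Fabp1, Etfa and Cd36 hold the reversed form of the repeat, and Creb3l3 and Slc25a20 the forward form. The first base of the match lies at -67 from the RefSeq start site in Fabp1, -77 in Etfa, -63 in Cd36, -209 in Creb3l3 and 6 in Slc25a20. Fabp1 and Etfa were called after PHx, and the 200 bases from -250 to -51 of that pair are given here with the match in capitals. The Fabp1 stretch is on the plus strand and the Etfa stretch on the minus strand.

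Fabp1, chr6:71199629-71199828: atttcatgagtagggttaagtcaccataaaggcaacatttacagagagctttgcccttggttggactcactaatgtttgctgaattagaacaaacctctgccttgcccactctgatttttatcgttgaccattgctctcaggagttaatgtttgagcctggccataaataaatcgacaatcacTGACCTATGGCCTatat
Etfa, chr9:55512294-55512493: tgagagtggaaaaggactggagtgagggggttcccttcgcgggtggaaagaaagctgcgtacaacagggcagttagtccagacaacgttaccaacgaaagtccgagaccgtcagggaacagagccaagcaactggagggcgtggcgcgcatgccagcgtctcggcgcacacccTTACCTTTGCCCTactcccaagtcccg

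A match is a description of letters, and binding was not measured in these libraries. Promoters of the other 8 members, the 3 Cyp4a genes among them, were not analysed here.

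The highest levels per kilobase of exon in WT baseline belonged to Fabp1 (9497 CPM per kb), which carries fatty acids through the cytosol, then to the thiolases Acaa2 (667 CPM per kb) and Acaa1b (611 CPM per kb). Fabp1 ranked 1 of the 36 in all 4 groups. Cyp4a14 ranked 20 in WT baseline, 5 in KO baseline, 3 in WT after PHx and 2 in KO after PHx. Cyp4a31 was the lowest member in WT baseline at 3.14 CPM per kb.

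**Figure D1:**
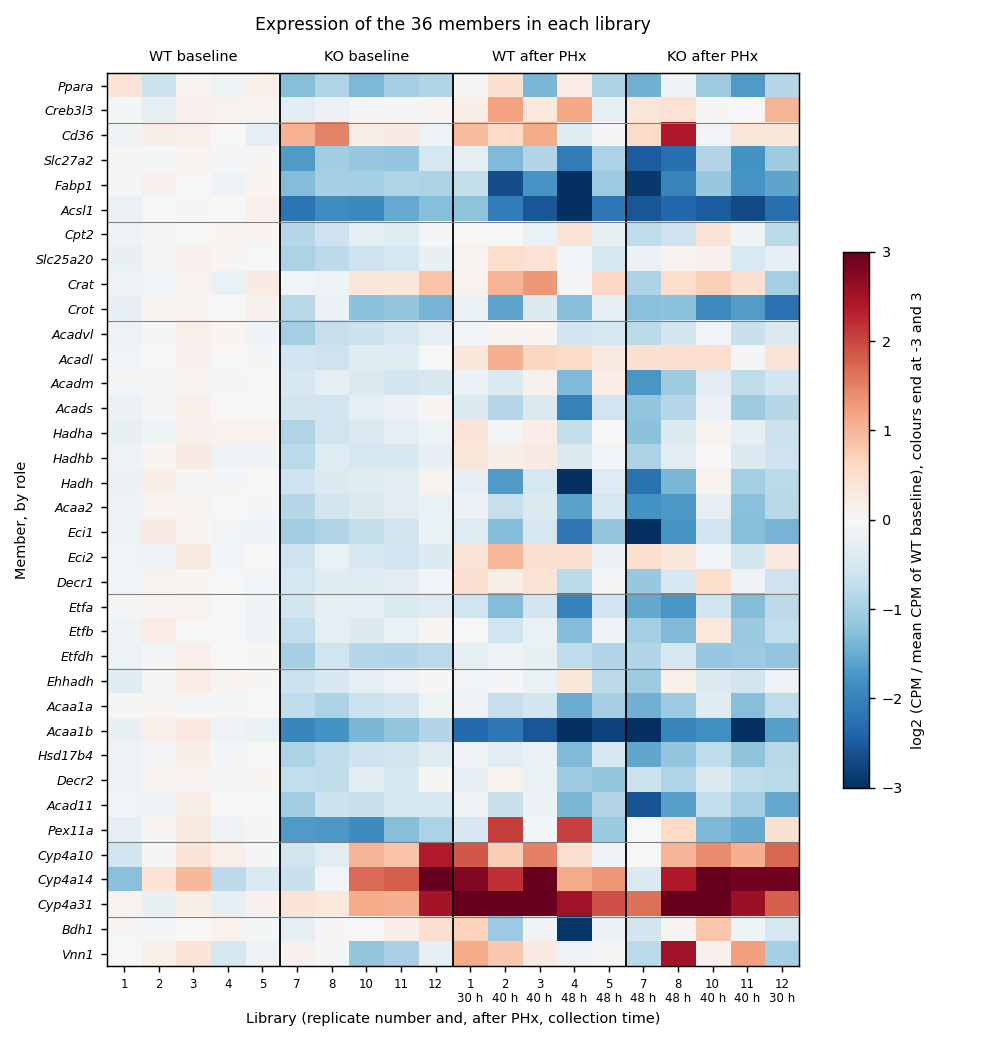
Heat map of the 36 members (rows, by role) in the 20 libraries (columns, by group and replicate number, with collection time after PHx). Colour is log2 of CPM over the WT baseline mean. Blue fills most rows of KO baseline, Acsl1 and Acaa1b stay blue in all 3 other groups, and the Cyp4a rows are mostly red after PHx and in KO baseline 10, 11 and 12.

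At baseline, the KO livers held less mRNA for fatty acid activation and for part of the oxidation chain than WT livers, and more for Cyp4a31. Of the 36 members, 9 fell (25%, against 4.89% of all genes tested) and 1 rose (2.78%, against 11.1%). The median log2 fold change was -0.44 for the members and -0.03 for all genes. The 5 KO and 5 WT libraries did not overlap for 19 members (52.8%, against 27.9% of all genes). Acsl1, Acaa1b and Etfdh kept their calls in each of the 10 fits that left out 1 library, and of these 3 Etfdh lost its call with scaling by library size alone (log2 -0.35, edgeR adjusted p = 0.203).

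Ppara, the receptor itself (chromosome 15, 85734983 to 85802819, mm10), was at 98.6, 47.3, 77.5, 66.5 and 82.3 CPM in WT baseline 1 to 5. In KO baseline 7, 8, 10, 11 and 12 it was at 30.6, 39.8, 29.4, 37.3 and 39.7 CPM. All KO libraries were under all WT libraries, with WT baseline 2 nearest to them. The mean was 74.4 ± 19.1 CPM in WT and 35.3 ± 5.02 CPM in KO (SD, n = 5), and Ppara fell by 1.07 on the log2 scale (SE 0.32, edgeR adjusted p = 0.0259). That call was lost without WT baseline 1, 3 or 5 or KO baseline 7 or 10, with adjusted p up to 0.0806, and with scaling by library size alone (log2 -0.59, edgeR adjusted p = 0.179). Creb3l3, a membrane-bound transcription factor that acts with PPAR-alpha in fasting, was at 285 to 380 CPM in WT and 276 to 366 CPM in KO and was not called.

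Among the 4 members for uptake and activation, Acsl1 and Slc27a2 fell. Acsl1, which ties long-chain fatty acids to coenzyme A (chromosome 8, 46471037 to 46536051), was at 1462, 1675, 1741, 1682 and 1890.0 CPM in WT baseline 1 to 5. In KO baseline 7, 8, 10, 11 and 12 it was at 368, 466, 441, 589 and 694 CPM. The groups were far apart, with the highest KO library under the lowest WT library by more than the whole range of either group. Acsl1 fell by 1.72 (SE 0.27, edgeR adjusted p = 0.000173), a 3.3-fold lower level. Slc27a2, a transporter and very-long-chain acyl-CoA synthetase, fell by 1.06 (SE 0.32, edgeR adjusted p = 0.0297). Fabp1 was at 4774 to 5723 CPM in WT and 2115 to 2827 CPM in KO, without overlap, and its log2 difference of -1.02 missed the threshold (edgeR adjusted p = 0.0731), but it was called in the fit of the baseline libraries alone and with the collection time term. Cd36, a fatty acid importer at the plasma membrane, overlapped (22.3 to 31.7 against 24.7 to 77.6 CPM).

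In the carnitine shuttle, Crot and Slc25a20 fell and Cpt2 and Crat were not called. Crot, which makes carnitine esters of medium chains leaving the peroxisome, was at 895, 1114, 1102, 1048 and 1164 CPM in WT baseline 1 to 5 and at 600.4, 948, 457, 472 and 405 CPM in KO baseline 7, 8, 10, 11 and 12. KO baseline 8 lay within the WT range and the other 4 KO libraries under it, with a log2 difference of -0.89 (SE 0.29, edgeR adjusted p = 0.0396). Slc25a20, the carrier that exchanges acylcarnitine for carnitine at the inner membrane, fell by 0.60 (edgeR adjusted p = 0.0331).

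The 11 enzymes of mitochondrial beta-oxidation all had a negative log2 fold change, -0.65 (Eci1) to -0.28 (Acads), but 8 of the 11 were positive with scaling by library size alone. Acadvl, the very-long-chain acyl-CoA dehydrogenase, was the 1 called (log2 -0.60, edgeR adjusted p = 0.0295), and its exons overlap those of Dvl2 on the other strand. Among the electron transfer flavoproteins, which hand the electrons of these dehydrogenases to the respiratory chain, Etfdh fell by 0.82 (SE 0.17, edgeR adjusted p = 0.00274). It was at 318, 346, 394, 355 and 365 CPM in WT baseline 1 to 5 and at 177, 235, 196, 194 and 202 CPM in KO baseline, without overlap, and some of its exonic bases overlap a gene on the other strand. Etfa and Etfb were not called.

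Of the 7 peroxisomal members, Acaa1b and Hsd17b4 fell. Acaa1b, a thiolase for the last step of the peroxisomal cycle (chromosome 9, 119148023 to 119157093), was at 1032, 1342, 1464, 1106 and 1049 CPM in WT baseline 1 to 5. In KO baseline 7, 8, 10, 11 and 12 it was at 307, 348, 465, 524 and 654 CPM. No KO library reached the WT range, and Acaa1b fell by 1.38 (SE 0.30, edgeR adjusted p = 0.00383). Its paralog Acaa1a was at 159 to 169 CPM in WT and 85.2 to 150.4 CPM in KO and was not called (log2 -0.58, edgeR adjusted p = 0.0927), except in the fit of the baseline libraries alone and with the collection time term. The coding sequences of the pair are 96.5% identical, and since reads mapping to several places were set aside, the split between them is uncertain. Hsd17b4, the multifunctional enzyme of the middle steps, fell by 0.64 (edgeR adjusted p = 0.0402). Pex11a, which takes part in peroxisome division, was at 70.4 to 104 CPM in WT and 23.04 to 44.3 CPM in KO, without overlap, and its log2 difference of -1.46 missed the threshold (edgeR adjusted p = 0.0639), but it was called by DESeq2, in the fit of the baseline libraries alone and with the collection time term.

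Bdh1, the mitochondrial dehydrogenase that interconverts ketone bodies, overlapped (211.7 to 237.6 against 181 to 311 CPM), as did Ehhadh, the peroxisomal bifunctional enzyme, at 360.0 to 546 CPM in WT and 299.8 to 478 CPM in KO.

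The 3 Cyp4a members had the opposite sign. Cyp4a31 (chromosome 4, 115563649 to 115579015) was at 8.52, 6.70, 9.01, 6.60 and 8.58 CPM in WT baseline 1 to 5 and at 10.5, 9.80, 17.1, 16.7 and 44.4 CPM in KO baseline 7, 8, 10, 11 and 12. Every KO library was above every WT library, KO baseline 7 and 8 by little and KO baseline 12 by most, and Cyp4a31 rose by 1.32 (SE 0.43, edgeR adjusted p = 0.0419). Without KO baseline 12 the log2 difference was 0.78 and was not called. Cyp4a14 was at 64.2, 202, 297, 87.8 and 110.2 CPM in WT baseline and at 96.2, 143, 497, 538 and 1556 CPM in KO baseline, in the same order of mice. KO baseline 7 and 8 lay within the WT range and the other 3 above it, and the log2 difference of 1.89 was not called (edgeR adjusted p = 0.0738), nor was that of Cyp4a10 (1.08, edgeR adjusted p = 0.129). Cyp4a14 was called by DESeq2, in the fit of the baseline libraries alone and with library size alone, and Cyp4a10 with library size alone. Coding sequences of Cyp4a10 and Cyp4a31 are 96.6% identical and each is at least 96.0% identical to Cyp4a32, so their values too may be split between copies, whereas Cyp4a14 is 75.9% identical to Cyp4a10.

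**Figure D2:**
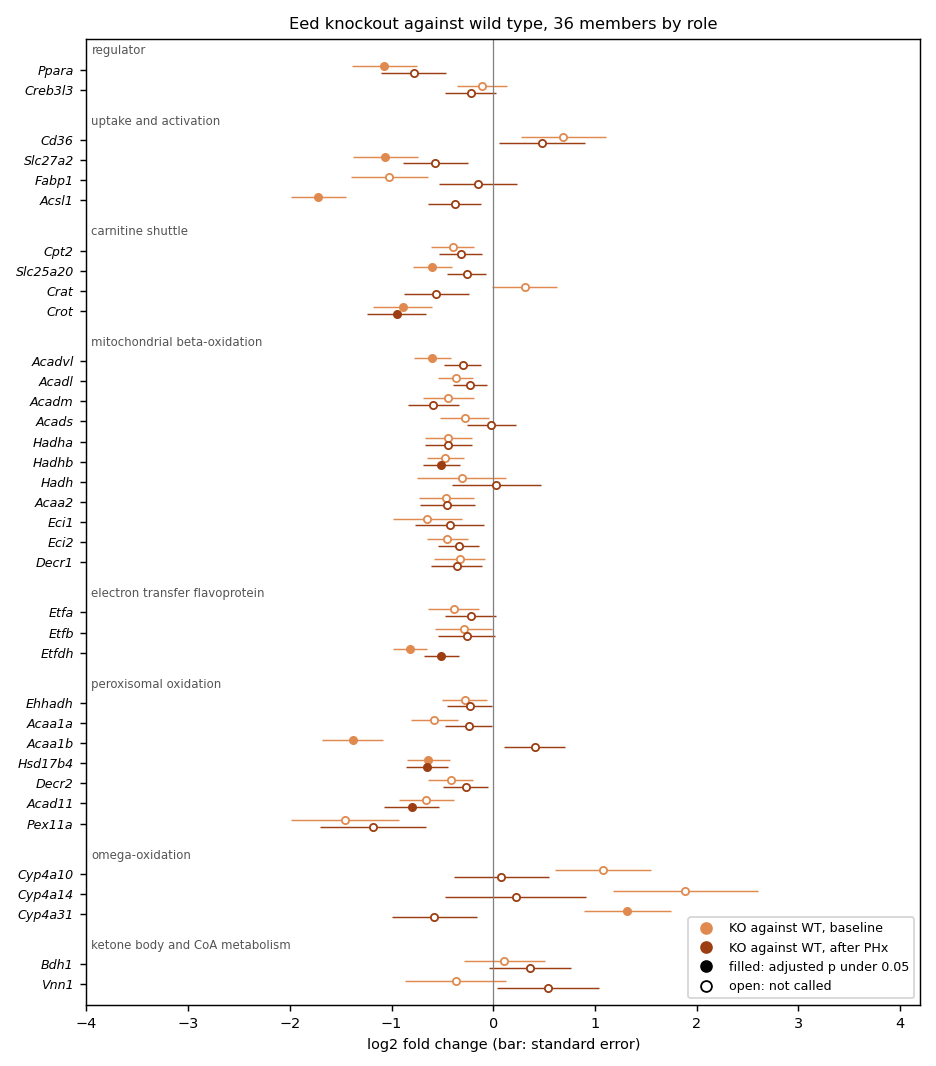
Log2 fold change of KO against WT for each member (rows, by role), at baseline (orange) and after PHx (brown). Bars are standard errors and filled points have an adjusted p under 0.05. Most points lie left of 0, Acsl1 and Acaa1b lie farthest left of the filled points at baseline, and Cyp4a31 is the filled point to the right.

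Within the KO baseline group the libraries differed from each other in the same way for most members. KO baseline 12 was the highest of the 5 for 27 of 36 members and KO baseline 7 the lowest for 24, with summed member levels of 15180.0 and 8593 CPM. Summed cycling markers were 61.1 CPM in KO baseline 12 and 182 CPM in KO baseline 7, and summed hepatocyte markers 113000 and 104000 CPM. Over the 14 hepatocyte markers the median log2 difference of KO from WT at baseline was -0.50, with 4 called lower, near the members' -0.44. The part of these marker differences in the members' result was not tested. The 7 calls other than Acsl1, Acaa1b and Etfdh were each lost in 5 to 9 of the 10 fits with 1 library left out, and each of the 10 libraries ended at least 1 of them. The count called lower was 3 without WT baseline 3 or KO baseline 7 or 10, 4 without WT baseline 2, 4 or 5, and 5 without KO baseline 8 or 11. The count called higher was 2 without KO baseline 7 or 8 and 0 without any of the other 8. With no filter beyond 1 count 4 were called lower. A fit of the 10 baseline libraries alone called 24 members lower (against 18% of all genes) and 2 higher (against 21.4%). Scaling by library size alone, which moved the median of all genes from -0.03 to 0.45, called 2 lower (Acsl1 and Acaa1b, against 0.771% of all genes) and 3 higher (the Cyp4a members, against 24%).

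After PHx, 1 of 4 members of the carnitine shuttle, 2 of 7 peroxisomal, 1 of 11 mitochondrial and 1 of 3 flavoprotein members were lower in KO than in WT livers. Of the 36 members, 5 fell in KO relative to WT (13.9%, against 8.2% of all genes) and 0 rose (against 16%). With no filter beyond 1 count, Crot alone of the 5 was called, a fit of these 10 libraries alone called 0, and DESeq2 called 5 lower and 0 higher. At an unadjusted p under 0.05 there were 8 members (22.2%, against 36.5% of all genes). The median was -0.31 for the members and -0.01 for all genes. The 2 groups overlapped for every one of the 36, while 10% of all genes did not overlap. Scaling by library size alone, which moved the median of all genes from -0.01 to 0.37, ended all 5 calls and called Acaa1b higher (against 26.6% of all genes). In the same comparison the 14 hepatocyte markers had a median of -0.45 (12 negative, 2 called lower), the 9 cholangiocyte markers tested a median of 2.84 (6 called higher) and the 14 stellate cell markers a median of 1.03 (6 called higher). The 14 macrophage markers had a median of 0.57 (4 called higher) and summed to 458 to 743 CPM in KO against 199 to 441 CPM in WT. The part of these markers in the result was not tested.

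The 5 that fell after PHx were Crot, Acad11, Hsd17b4, Etfdh and Hadhb. Crot was at 928, 355, 788, 438 and 871 CPM in WT PHx 1 to 5, and at 450.0, 457, 283, 331 and 224 CPM in KO PHx 7, 8, 10, 11 and 12. WT PHx 1, 3 and 5 were above all KO libraries, while WT PHx 2 and 4 lay among them, and Crot fell by 0.95 (SE 0.29, edgeR adjusted p = 0.0198). Acad11, a dehydrogenase for long acyl chains, was at 386, 273, 381, 168 and 235 CPM in WT and at 71.0, 138, 256, 212 and 149 CPM in KO, and fell by 0.80 (SE 0.27, edgeR adjusted p = 0.0357). Its lowest library was KO PHx 7 at 48 h. Hsd17b4 (-0.65, edgeR adjusted p = 0.0269), Etfdh (-0.51, edgeR adjusted p = 0.0356) and Hadhb (-0.51, edgeR adjusted p = 0.045), a subunit of the mitochondrial trifunctional protein, changed less. Crot, Hsd17b4 and Etfdh were thus called lower in KO at both stages.

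The members farthest apart at baseline were not called after PHx. Acsl1 was at 729, 404, 284, 198 and 379 CPM in WT PHx 1 to 5 and at 286, 329, 302, 260.3 and 354 CPM in KO PHx 7, 8, 10, 11 and 12. Acaa1b was at 238, 269, 204, 109 and 174 CPM in WT and at 137, 307, 336, 148 and 388 CPM in KO. Both genotypes were under the KO baseline mean of 512 CPM for Acsl1, except WT PHx 1, and the groups overlapped for both genes. Ppara was at 76.2, 102, 28.8, 86.6 and 38.9 CPM in WT and 27.4, 66.5, 35.4, 22.9 and 41.0 CPM in KO (log2 -0.78, edgeR adjusted p = 0.0772). None of the 3 Cyp4a members was called.

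Within a single collection time the calls were few and not the same. At 40 h, Pex11a (-2.80, edgeR adjusted p = 0.0225), Eci2 (-1.05, edgeR adjusted p = 0.0172) and Etfdh (-0.94, edgeR adjusted p = 0.00824) were lower in KO, 3 members against 4.68% of all genes, and 0 were higher (against 8.61%). At 48 h, Cpt2 (-0.80, edgeR adjusted p = 0.0379) and Acad11 (-0.94, edgeR adjusted p = 0.029) were lower, 2 members against 10.7% of all genes, and Cd36 was higher (1.96, edgeR adjusted p = 0.0151), 1 member against 13.7%. Each rests on 2 libraries per genotype, and Cd36 at 48 h was at 40.8 and 146 CPM in KO and at 21.3 and 26.7 CPM in WT. At 30 h, with 1 library per genotype and no test, Ppara was at 76.2 CPM in WT and 41.0 CPM in KO.

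Of the 5 calls after PHx none held in all 10 fits with 1 library left out, and each library but WT PHx 4 ended at least 1 of them. The count called lower ran from 0 without WT PHx 1 to 10 without KO PHx 10, was 3 without WT PHx 2, KO PHx 8 or KO PHx 11, 2 without WT PHx 3 or KO PHx 12, and 1 without KO PHx 7. KO PHx 10 was the highest of its group for 23 of the 36 members and had summed cycling markers of 1320.0 CPM against 147 to 259 CPM in the other 4, whose part in the result was not tested.

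The response to PHx in WT livers was large for a few members and had both signs, also within mitochondrial beta-oxidation (1 called higher and 2 lower). Of the 36 members, 8 fell (22.2%, against 8.68% of all genes) and 3 rose (8.33%, against 11.4%). The median was -0.20, against 0.04 for all genes, and 14 members did not overlap between the 2 groups (38.9%, against 17.8%). Acaa1b, Acsl1, Fabp1 and Cyp4a31 kept their calls in all 10 fits with 1 library left out. The hepatocyte markers had a median of -0.34 (10 of 14 negative, 4 called lower) and summed to 106000 to 157000 CPM after PHx against 162000 to 183000 CPM before. In the same comparison 12 of 12 cycling markers (median 5.78) and 4 of 5 neutrophil markers (4.31) were called higher. Called lower were 5 of 7 lymphocyte markers (-2.57) and 2 of 12 endothelial markers (-0.42). Of 8 adipocyte markers listed only 3 were tested, Cidec among them, and these 3 were called higher (5.45). The part of these markers in the members' result was not tested.

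From the baseline values above, Acaa1b fell by 2.59 (SE 0.32, edgeR adjusted p = 3.1e-05), a 6.04-fold lower level at 109 to 269 CPM. Acsl1 fell by 2.08 (SE 0.27, edgeR adjusted p = 6.1e-05), a 4.24-fold lower level at 198 to 729 CPM. Fabp1, whose promoter holds the closest match shown above, was at 3193, 837, 1537, 475 and 2472 CPM in WT PHx 1 to 5 and fell by 1.62 (SE 0.39, edgeR adjusted p = 0.00681). The lowest value of all 3 genes was in WT PHx 4 at 48 h, and for Acsl1 and Fabp1 the highest was in WT PHx 1 at 30 h.

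Slc27a2 fell by 0.99 (edgeR adjusted p = 0.0352). Etfa, the alpha subunit of the electron transfer flavoprotein, was at 378, 413, 421, 386 and 357 CPM in WT baseline 1 to 5 and at 259, 159.7, 262, 96.0 and 263 CPM in WT PHx 1 to 5, and fell by 0.91 (SE 0.25, edgeR adjusted p = 0.0143). Every library after PHx was under every baseline library, and the call was lost without WT PHx 4 (edgeR adjusted p = 0.0583). The enoyl-CoA isomerase Eci1 (-0.98, edgeR adjusted p = 0.0489), the short-chain dehydrogenase Acads (-0.76, edgeR adjusted p = 0.0336) and Acaa1a (-0.69, edgeR adjusted p = 0.0403) fell too. Acaa1a lost much less than its paralog Acaa1b, a log2 change of -0.69 beside -2.59, and the difference between paralogs was not tested.

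The long-chain dehydrogenase Acadl rose by 0.61 (SE 0.17, edgeR adjusted p = 0.0154), with 193 to 221 CPM at baseline and 244 to 427 CPM after PHx, whereas Hadha, the other subunit of the trifunctional protein, was level at a mean of 422 CPM before and 424 CPM after PHx. With the mouse number as a block Acadl was not called (log2 0.62, edgeR adjusted p = 0.072). Cyp4a31 was at 64.7, 77.4, 138, 44.9 and 30.0 CPM in WT PHx 1 to 5 and rose by 3.17 (SE 0.46, edgeR adjusted p = 0.00015), a 9.01-fold higher level. Cyp4a14 was at 1048, 691, 1652, 330 and 380 CPM and rose by 2.43 (SE 0.72, edgeR adjusted p = 0.0226). No library after PHx overlapped with baseline for either gene, and WT PHx 3 was highest for both. The Cyp4a14 call was lost without WT baseline 1, 4 or 5 or WT PHx 3, with adjusted p up to 0.0593.

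Ppara was not called in WT (log2 -0.16, edgeR adjusted p = 0.767). Creb3l3 was at 338, 285, 380.4, 373 and 371 CPM in WT baseline 1 to 5 and at 404, 810, 434, 781 and 291 CPM in WT PHx 1 to 5 (log2 0.64, edgeR adjusted p = 0.0783). WT PHx 2 and 4, the high pair for Creb3l3, were also the high pair for Pex11a, at 357 and 352 CPM against 39.3 to 81.4 CPM in the other 3. Those libraries had summed cycling markers of 44.8 and 66.4 CPM, against 118 CPM in WT PHx 3, 1020.0 CPM in WT PHx 1 and 1200.0 CPM in WT PHx 5, and the part of this in the result was not tested.

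**Figure D3:**
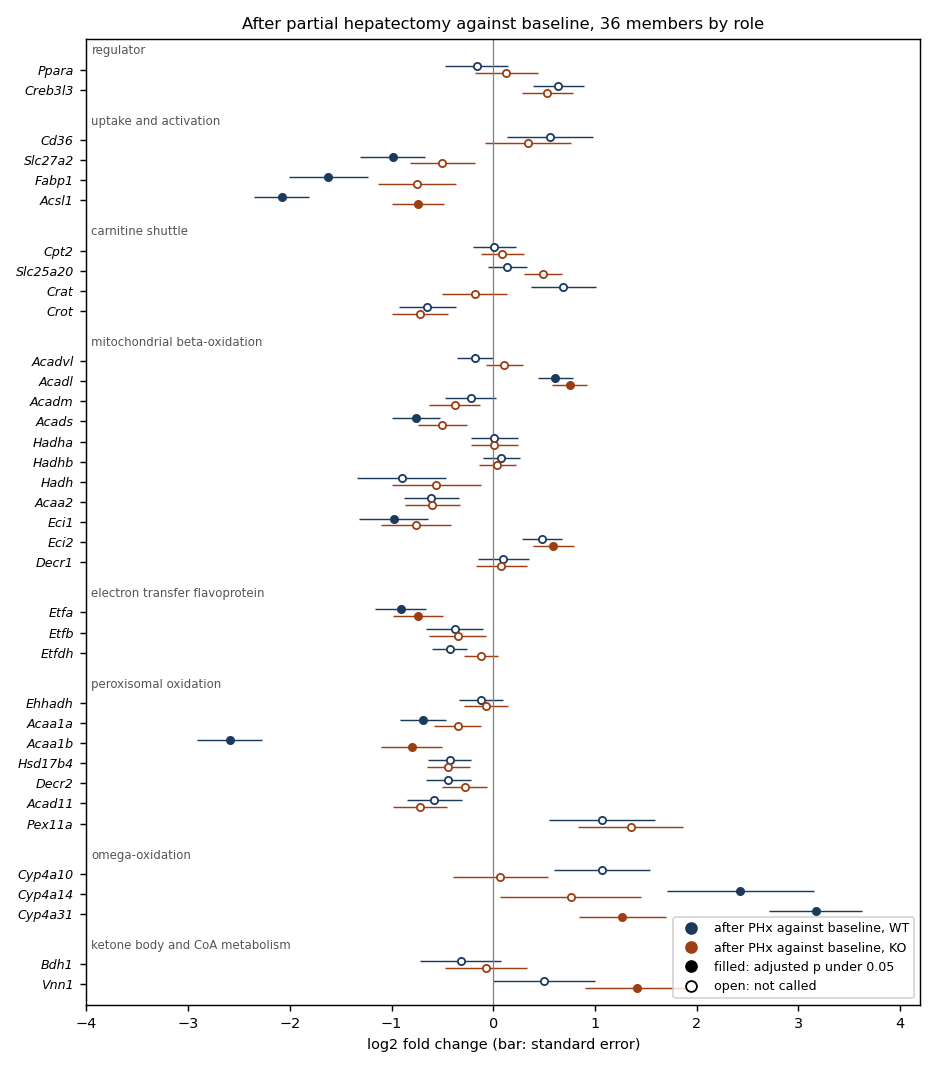
Log2 fold change after PHx against baseline for each member (rows, by role), in WT (dark blue) and KO (brown). Bars are standard errors and filled points have an adjusted p under 0.05. Acsl1, Acaa1b and Fabp1 lie far to the left and Cyp4a14 and Cyp4a31 far to the right in WT, and the KO points of these 5 genes lie nearer to 0.

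WT PHx 4 was the lowest of its group for 23 of the 36 members, with a summed level of 7414 CPM, and WT PHx 1 was the highest for 18, with 15780.0 CPM. Calls other than the 4 named were lost in 1 to 9 of the 10 fits with 1 library left out, and each library but WT PHx 1 ended at least 1. The number called lower was 5 without WT baseline 1, 4 without WT baseline 2, 3, 4 or 5 or WT PHx 2 or 5, and 3 without WT PHx 4, and the number called higher was 5 without WT PHx 5. The number lower was 4 without the filter on low counts. With scaling by library size alone, which moved the median of all genes from 0.04 to 0.40, 8 rose (against 25.9% of all genes) and 3 fell (against 3.97%).

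In KO livers the same activating enzyme and thiolase, Acsl1 and Acaa1b, fell after PHx, and Cyp4a31 and Acadl rose. Of the 36, 3 fell (8.33%, against 12.1% of all genes) and 4 rose (11.1%, against 17.5%), shares below the background in both directions. The median was -0.09, against 0.10 for all genes, and 2 members did not overlap (5.56%, against 13.9%). The hepatocyte markers had a median of -0.50 (11 of 14 negative, 3 called lower). Called higher were 5 of 9 cholangiocyte markers (median 2.59), called lower were 6 of 7 lymphocyte markers (-2.73), and of 14 macrophage markers 4 were lower and 2 higher (-0.79). Of 8 adipocyte markers listed only 3 were tested, again with Cidec among them, and these 3 were called higher (3.16). Of 12 endothelial markers 4 were lower and 1 higher, with sums of 367 to 445 CPM before and 164 to 346 CPM after PHx, and cycling markers summed to 61.1 to 182 CPM before and 147 to 1320.0 CPM after, with 1 of 12 called higher. The part of these markers in the members' result was not tested.

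Acaa1b fell by 0.80 (SE 0.30, edgeR adjusted p = 0.0485), Acsl1 by 0.74 (SE 0.26, edgeR adjusted p = 0.0384) and Etfa by 0.74 (SE 0.25, edgeR adjusted p = 0.0308). Etfa went from 266, 317, 321, 291 and 300.3 CPM in KO baseline 7, 8, 10, 11 and 12 to 134, 117, 257, 159 and 227 CPM in KO PHx of the same mice, lower in 5 of 5. Acsl1 and Acaa1b were also lower in 5 of 5 mice, by 0.36 to 1.18 and by 0.18 to 1.82 on the log2 scale.

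Cyp4a31 was at 24.96, 64.9, 74.6, 46.5 and 27.2 CPM in KO PHx 7, 8, 10, 11 and 12 and rose by 1.27 (SE 0.43, edgeR adjusted p = 0.0308). Cyp4a14 was at 113, 804, 1595, 1140.0 and 1127 CPM and was not called (log2 0.76, edgeR adjusted p = 0.412). For both genes 4 of 5 mice were higher after PHx than before, and mouse 12, with the highest baseline and collected at 30 h, was lower. Vnn1, a pantetheinase of coenzyme A turnover, was at 28.6, 25.4, 11.5, 13.4 and 21.8 CPM in KO baseline 7, 8, 10, 11 and 12 and at 14.9, 149.8, 28.3, 61.4 and 13.2 CPM in KO PHx. It rose by 1.41 (SE 0.51, edgeR adjusted p = 0.0418), with higher values in mice 8, 10 and 11 and lower ones in mice 7 and 12, and without KO PHx 8 the log2 change was 0.53 and was not called.

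Acadl rose by 0.75 (SE 0.17, edgeR adjusted p = 0.00408), in 5 of 5 mice, and was the 1 call of 7 to hold in all 10 fits with 1 library left out. The isomerase Eci2 rose by 0.59 (edgeR adjusted p = 0.0345). With the mouse number as a block, 2 members were called higher (Acadl and Cyp4a31) and 6 lower (Crot, Acaa1b, Acsl1, Eci1, Etfa and Acad11), against 10.7% and 11.8% of all genes. Each of the 10 libraries ended at least 1 call when left out, and the count called lower ran from 0 without KO baseline 11 or 12 or KO PHx 7 or 8, through 1 without KO baseline 8 or 10 or KO PHx 11, to 8 without KO PHx 10. The count called higher was 1 without KO baseline 10 or 11 or KO PHx 8 and 2 without KO baseline 7 or 8. Scaling by library size alone, which moved the median of all genes from 0.10 to 0.37, called 7 higher (against 27.7% of all genes) and 0 lower (against 6.55%).

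The test of the difference between the responses of KO and WT called 0 members in either direction (0.164% and 0.225% of all genes). At an unadjusted p under 0.05 there were 3 members (8.33%, against 13.3% of all genes). DESeq2 called 2, Acsl1 and Acaa1b (against 0.75% of all genes called higher), both with a less negative response in KO. Without WT PHx 1, KO PHx 7 or KO PHx 10, edgeR called 1 member higher. In the edgeR fit the difference was 1.79 for Acaa1b (SE 0.42, edgeR adjusted p = 0.0669), 1.34 for Acsl1 (SE 0.37, edgeR adjusted p = 0.124) and -1.90 for Cyp4a31 (SE 0.60, edgeR adjusted p = 0.176). The responses of Ppara differed by 0.29 (edgeR adjusted p = 0.831). The responses share the baseline values with the comparison of genotypes at baseline, so a low KO baseline enters both. Within single mice, Acsl1 fell by 2.05 to 3.09 on the log2 scale in 4 WT mice and by 0.36 to 1.18 in 5 KO mice. For Acaa1b the within-mouse falls were 2.32 to 3.35 in WT and 0.18 to 1.82 in KO. For both genes the 4 WT values were all outside the 5 KO values, whereas those of Cyp4a31 overlapped (1.81 to 3.94 in WT and -0.71 to 2.73 in KO). WT PHx 1, collected at 30 h, is not among the 4 WT mice because no baseline library carries its number. For Acsl1 it was the highest WT library after PHx, at 729 CPM. KO mouse 12, also collected at 30 h, is among the 5 KO mice. The fit with the mouse number as a block called 0 members for the difference in either direction (against 0.0136% and 0.0341% of all genes).

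**Figure D4:**
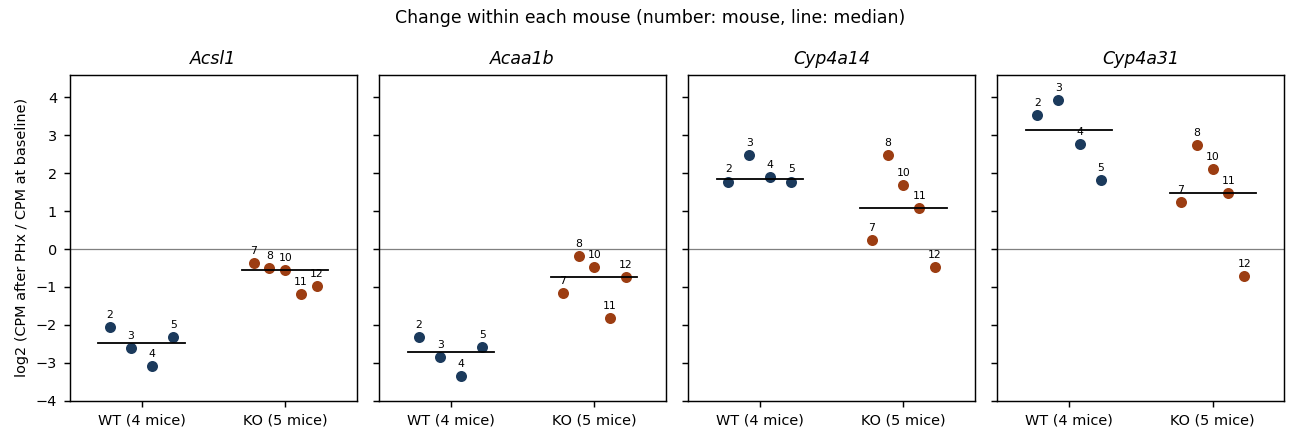
Log2 ratio of CPM after PHx to CPM at baseline in each numbered mouse, 4 WT and 5 KO, for 4 members. Lines are medians. Acsl1 and Acaa1b were lower in all 9 mice and by more in each WT mouse than in any KO mouse, and both Cyp4a genes were higher after PHx in all but KO mouse 12.

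**Figure D5:**
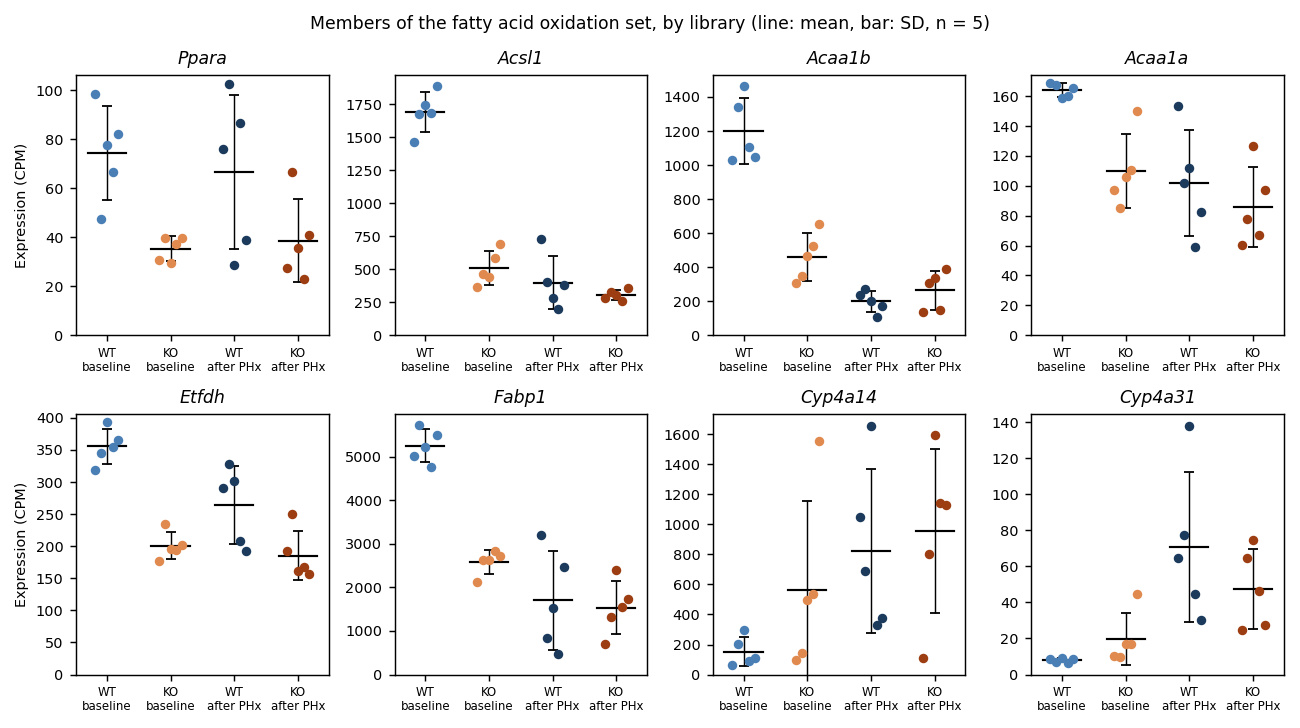
CPM of 8 members in each library (points), with the mean (line) and SD (bar, ended at the axis where it would pass 0) of the 5 libraries of each group. Acsl1, Acaa1b and Fabp1 are high in WT baseline alone, and Cyp4a14 spreads from 96.2 to 1556 CPM within KO baseline.

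Among the 12538 other genes with a mean of at least 1 CPM, and over the 20 libraries, the genes whose log2 CPM followed Ppara most closely were Hopx (Spearman rho 0.854), Xpot (0.847), Polr3g (0.838), Tent4b (0.818) and Ipo8 (0.818), none of them a member. The members nearest to Ppara were Ehhadh (0.67), Etfdh (0.66) and Pex11a (0.61). These values describe libraries that share groups and scaling, and carry no test.

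Of the other genes of the pathway, 108 were tested, and at baseline 18 were lower in KO (against 4.89% of all genes) and 4 higher (against 11.1%). The partner receptor Rxra was at 454 CPM in WT and 406 CPM in KO on average at baseline, and Cpt1a, the gate of the carnitine shuttle, at 309 and 269.9 CPM, neither called. Acbd5, an acyl-CoA binding protein of the peroxisome, fell after PHx between genotypes by 1.24 (edgeR adjusted p = 0.00375), a call lost with library size alone (log2 -0.84, edgeR adjusted p = 0.0584).

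After PHx, 14 of the 108 rose in WT (against 11.4% of all genes) and 35 fell (against 8.68%). In KO, 21 rose (against 17.5%) and 35 fell (against 12.1%). Cpt1a rose by 0.83 in WT (edgeR adjusted p = 0.00748) and by 0.79 in KO (edgeR adjusted p = 0.0077). With the mouse number as a block the WT call was lost (edgeR adjusted p = 0.0732). Pdk4, a brake on glucose oxidation, was at 15.1 to 24.9 CPM in WT baseline and at 10.9, 614, 40.9, 1020.0 and 34.1 CPM in WT PHx 1 to 5, and rose by 4.09 (SE 1.05, edgeR adjusted p = 0.0102), a call lost with the block (log2 3.10, edgeR adjusted p = 0.0934). WT PHx 2 and 4, which were high for Pex11a and Creb3l3, were again the high pair. In KO, Pdk4 was at 1691, 1461, 28.3, 335 and 1615 CPM in KO PHx 7, 8, 10, 11 and 12 and rose by 5.01 (SE 1.09, edgeR adjusted p = 0.0035), with KO PHx 10 at its baseline level. Angptl4, a secreted lipase inhibitor, rose in KO by 1.75 (edgeR adjusted p = 0.0101). Fgf21, a hepatic hormone of fasting, was not called in any comparison, but fits of only the samples compared called it lower in KO at baseline (log2 -1.32, edgeR adjusted p = 0.0417) and higher after PHx in KO (log2 2.30, edgeR adjusted p = 0.0459), the latter also with the collection time term (log2 1.94, edgeR adjusted p = 0.0497).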

How the data were processed

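Bulk liver RNA-seq was analysed in 20 libraries, 5 in each of 4 groups. Per the labels' protocols, RNA with an integrity number over 8 went into TruSeq libraries for paired-end NovaSeq sequencing. The deposited values are raw counts of uniquely mapped reads per gene on mm10. The design text names fastp 0.20.0, and the submitters' processing notes name Trimmomatic 0.36 and FastQC 0.11.5. The aligner, counting tool, strand setting and annotation are not given in the sources used here.

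Counts were filtered (filterByExpr), TMM-scaled and fitted with edgeR 4.0.16 (R 4.3.3, limma 3.58.1) as 4 group means over 20 libraries. The quasi-likelihood test was adjusted by Benjamini-Hochberg over 14661 genes. CPM are per 1000000 TMM-scaled counts, and SE is the log2 fold change over the root of F. Alternatives were DESeq2 1.42.0, library size alone, no filter, only the samples compared, a term for collection time, a replicate block and each library left out. On simulated data, with 200 genes changed by 1 on the log2 scale, the fit recovered 20.3% of them for KO against WT at baseline (14356 genes).

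The members, gene lists and alternatives were chosen with earlier results of these data known. Described with every sample's value were Ppara, Creb3l3 and, in each comparison, the called members at either end of the log2 fold changes, 2 at each end; a few others were chosen after their values were seen. Mouse numbers in the labels pair the libraries of 9 mice, since the same animal gave both; WT baseline 1 carries no number. Residual correlations of same-numbered pairs were -0.051 to 0.149, within the range of pairs of different numbers (-0.229 to 0.255). P-values of the main fit rest on the spread between libraries of a group, pooled over the groups. Both libraries of a mouse were treated as independent there, and collection times were mixed within the groups after PHx. Identity of paralogs was computed on coding sequences of GENCODE M21, and promoters came from RefSeq. A few genes of the wider pathway are not reported here.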

Additional observations from a re-analysis of the deposited data

Results flagged for a closer look

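In 7 of 144 groups of 5 libraries (36 members in 4 groups), the highest or lowest library stood apart from the rest by more than 0.71 of the group's range, and chance gives about 1 in 20. Cd36 was at 145.5 CPM in KO PHx 8, against 25.94 to 40.78 CPM in the other 4. Fabp1 was at 2115 CPM in KO baseline 7, against 2625 to 2827 CPM. Acadl was at 198.7 CPM in KO PHx 11, against 271.6 to 289.5 CPM. Acadm, the medium-chain dehydrogenase, was at 365.2 CPM in WT baseline 3, against 335.6 to 340.9 CPM. In KO PHx 10, Acads was at 165.1 CPM against 82.71 to 103.3 CPM, and Etfb, the beta subunit of the electron transfer flavoprotein, at 31.01 CPM against 9.927 to 15.05 CPM. Cyp4a31 was at 44.41 CPM in KO baseline 12, against 9.804 to 17.14 CPM.

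Among the other genes of the pathway, the response of Pparg, the fat-cell relative of PPAR-alpha, differed between genotypes by 1.81 on the log2 scale (SE 0.38, edgeR adjusted p = 0.0427), a call lost with the mouse number as a block (1.89, edgeR adjusted p = 0.0908), with library size alone (1.75, edgeR adjusted p = 0.0571) and with no filter (1.72, edgeR adjusted p = 0.0823). Pparg rose after PHx in KO by 1.33 (edgeR adjusted p = 0.00249) and was not called in WT (-0.48, edgeR adjusted p = 0.215), from baseline means of 3.34 CPM in KO and 9.80 CPM in WT.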

How the results depend on the processing

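At baseline, 1 member was called higher in KO and 9 lower. Higher calls became 2 with DESeq2, 3 with library size alone and 2 with only the samples compared. Lower calls became 2 with library size alone, 4 with no filter, 24 with only the samples compared and 14 with the collection time term. After PHx, library size alone gave 1 higher and 0 lower, no filter 1 lower and only the samples compared 0 lower. In the WT response, higher calls were 8 with library size alone and 5 with the time term, and lower calls 3 with library size alone and 4 with no filter. In the KO response, higher calls were 7 with library size alone, 2 with no filter, 2 with only the samples compared and 2 with the replicate block. Lower calls there were 5 with DESeq2, 0 with library size alone, 0 with no filter, 1 with only the samples compared, 8 with the time term and 6 with the replicate block. The difference between responses had 2 higher calls with DESeq2 and 2 with the time term. The cause was not tested.

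The replicate block, which pairs the libraries of 1 mouse, changed the calls of the WT response to 2 higher (Acadl was lost) and 9 lower. With 1 library left out, higher calls ranged from 0 to 2 and lower calls from 3 to 8 at baseline, from 0 to 0 and 0 to 10 after PHx, from 2 to 5 and 3 to 8 in the WT response, from 1 to 5 and 0 to 8 in the KO response, and from 0 to 1 and 0 to 0 for the difference. Values that were not called changed sign more freely. Over all 36 members in 5 comparisons (180 pairs), 199 of 3132 recomputed values changed sign, in 79 pairs, 94 of them in the difference between responses. None of the 199 belonged to a called pair, and none was called in the alternative.

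Library size alone turned the baseline log2 fold changes positive for Acaa2 (0.01), Acadl (0.10), Acadm (0.04), Acads (0.19), Decr1 (0.14), Eci2 (0.02), Hadh (0.15), Hadha (0.02), Cpt2 (0.06), Creb3l3 (0.37), Ehhadh (0.18), Decr2 (0.04), Vnn1 (0.12), Etfa (0.09), Etfb (0.17), Cpt1a (0.28) and Rxra (0.31), and the WT response of Ppara (0.20). The time term turned Fgf21 after PHx (0.89) and in the WT response (-0.31), and Hadha in the WT response (-0.02), as did the replicate block (-0.19). With 1 library left out, Bdh1 ranged from -0.00 to 0.26 and Creb3l3 from -0.17 to 0.01 at baseline. After PHx, Cyp4a10 ranged from -0.11 to 0.37, Cyp4a14 from -0.05 to 0.64 and Fgf21 from -0.97 to 0.67. The WT response ranged from -0.10 to 0.20 for Hadha and from -0.37 to 0.03 for Ppara, the KO response of Ppara from -0.15 to 0.24, and its difference from -0.04 to 0.49.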

Other observations

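Of 29 genes tested in the list of ketogenesis and other PPAR-alpha targets, 10 rose and 4 fell after PHx in WT (against 11.4% and 8.68% of all genes), and 13 rose and 1 fell in KO (against 17.5% and 12.1%). Cidec, a lipid droplet protein, went from a mean of 0.98 CPM to 272 CPM in WT (log2 8.11, SE 1.26, edgeR adjusted p = 0.000321) and from 1.59 to 284 CPM in KO (log2 7.46, SE 1.21, edgeR adjusted p = 0.000713). Apoa4, an apolipoprotein of lipid export, rose by 6.54 in WT (edgeR adjusted p = 1.93e-06) and by 3.53 in KO (edgeR adjusted p = 0.000421). It was already higher in KO at baseline (362.7 to 1192 CPM against 60.9 to 117 CPM, edgeR adjusted p = 0.000743). Cidea, a relative of Cidec, was at 0.76 to 24.8 CPM in KO after PHx and at 0 to 1.70 CPM in WT (log2 4.16, SE 0.93, edgeR adjusted p = 0.00286). Mogat1, which makes diacylglycerol, was higher in KO after PHx by 2.25 (edgeR adjusted p = 0.0354), a call lost with only the samples compared (edgeR adjusted p = 0.0981). The adipocyte marker list holds Cidec itself. Its other 7 genes summed to 8.26 to 12.4 CPM in WT baseline, 13.4 to 368 CPM in WT after PHx, 7.61 to 15.2 CPM in KO baseline and 19.4 to 182 CPM in KO after PHx. Lep had no count in any group, and Adipoq, a defining adipocyte gene, had none in KO. The part of adipocytes in these results was not tested.

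Of 12 other genes of mitochondrial oxidation tested, 8 fell after PHx in WT (against 8.68% of all genes) and 11 in KO (against 12.1%). Of 27 other peroxisomal genes, 11 fell in WT and 10 in KO. Of 7 other Cyp4 omega-hydroxylases tested, unlike the Cyp4a members, 0 rose in either genotype, and 4 fell in WT and 6 in KO. Nudt7, a peroxisomal hydrolase of coenzyme A, fell by 2.36 in WT (edgeR adjusted p = 0.00894) and by 2.04 in KO (edgeR adjusted p = 0.0146). Acsm5, a medium-chain acyl-CoA synthetase, fell by 2.35 in KO (edgeR adjusted p = 0.00829) and by 1.91 in WT (edgeR adjusted p = 0.0279).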
